A study of Mus musculus with 6 samples.

Results

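Cycling nuclei are nuclei that carried transcripts of the machinery that separates chromosomes. They were taken from every barcode with more than 200 genes detected and under 5% of its UMIs (unique molecular identifiers, the molecule counts of droplet sequencing) on mitochondrial genes, with no upper limit on genes. A barcode was called cycling when at least 4 of 10 mitotic genes had at least 1 UMI, the 10 being Mki67, Top2a, Cenpf, Cenpe, Kif11, Kif15, Knl1, Aspm, Anln and Bub1. Of 40834 barcodes that passed the 2 limits, 360 were cycling (0.882%). The 10 genes chose these nuclei, so their levels inside them are given as a description, and no test was made of cycling against other nuclei.

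The nuclei came from snap-frozen livers of 6 male DIAMOND mice, a cross that the labels give as 129A1/SvIm and C57BL/6J cross mice, with 1 single-nucleus RNA library per mouse. The Ctrl group of 2 mice ate a chow diet for 40 weeks, the Pre-T group of 2 mice a Western diet (food rich in fat, with sugar water to drink) over 40 weeks, and the Post-T group of 2 mice the same Western diet for 48 weeks. All diets began at 2 months of age, and the Post-T mice were therefore also older than the others when sampled. The titles of the Post-T libraries name a tumor while their tissue field names liver, so whether tumor, surrounding liver or both were sampled is not settled by the labels.

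Cells that divide copy their DNA in S phase and separate it in mitosis, and each step has its own set of transcripts. Cyclins and cyclin-dependent kinases drive the steps, and a family of kinase inhibitors and pocket proteins holds them back. Hepatocytes of an adult liver are mostly at rest, yet the organ is known for its ability to regrow after loss of tissue, and Kupffer cells, the macrophages resident in the liver, can renew themselves by local division.

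The 6 libraries held 22453658 to 40307564 UMIs in 5638 to 8469 barcodes. The mitochondrial limit left out 1048 barcodes and the gene limit none, since the barcode with the fewest genes had 214. Barcode sequences recurred between libraries at 0.434% (181 of 41700), and 4 cycling barcodes had a namesake in another library, none of them cycling there.

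The 4 marker genes given for the label are among the 10 of the rule, so their detection describes the choice of nuclei and does not check it, and the genes that the rule did not use are given further on. Top2a, which untangles DNA strands, had a UMI in 94.7% of the cycling nuclei and 1.61% of the other 40474. Mki67, the gene of the proliferation antigen Ki-67, had one in 82.5% and 1.79%. Cenpf, a protein of the kinetochore, was detected in 54.4% and 0.539%, and Aspm, a protein of the spindle poles, in 41.7% and 0.457%. The cycling nuclei were also deeper, with a median of 7459.5 UMIs against 2093, so shares of nuclei with a UMI were read beside levels in CPM, the counts of a gene scaled to an equal total for every set of nuclei. On that scale, pooled over the libraries, the 10 genes were 37.7 times (Mki67) to 103 times (Bub1, a checkpoint kinase) as high in cycling as in other nuclei, with a median of 52.4 times, and each was higher in all 6 libraries. The 2 Pre-T libraries dominate the pooled values, and the mice differed widely. The median ratio of the 10 genes was 281 and 138 in the Ctrl mice, 44.8 and 23.3 in the Pre-T mice and 77.0 and 168 in the Post-T mice, and that of Mki67 alone ran from 17.1 in Pre-T 2 to 468 in Ctrl 1. The remaining genes of the rule serve the spindle and the kinetochore (Cenpe, Kif11, Kif15 and Knl1) or cytokinesis (Anln).

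The promoters of the 4 marker genes are printed because mitotic genes are known to share promoter elements, among them the cell cycle homology region with its core TTTGAA and the CCAAT box. Each is the window of 250 bases before to 50 bases after the transcription start in RefSeq for GRCm38.p6, the assembly of the mm10 reference that the files use, read 5′ to 3′ on the strand of the gene. Capitals mark TTTGAA or its reverse complement TTCAAA and CCAAT or its reverse complement ATTGG. The windows are chr7:135716330-135716629 on the minus strand for Mki67, chr11:99024140-99024439 on the minus strand for Top2a, chr1:189688037-189688336 on the minus strand for Cenpf and chr1:139454523-139454822 on the plus strand for Aspm.
Mki67: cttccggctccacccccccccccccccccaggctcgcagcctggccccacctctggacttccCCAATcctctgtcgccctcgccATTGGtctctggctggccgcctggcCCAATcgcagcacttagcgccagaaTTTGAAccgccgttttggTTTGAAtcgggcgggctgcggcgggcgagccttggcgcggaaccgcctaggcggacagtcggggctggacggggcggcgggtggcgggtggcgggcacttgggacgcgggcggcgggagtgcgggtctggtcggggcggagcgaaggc
Top2a: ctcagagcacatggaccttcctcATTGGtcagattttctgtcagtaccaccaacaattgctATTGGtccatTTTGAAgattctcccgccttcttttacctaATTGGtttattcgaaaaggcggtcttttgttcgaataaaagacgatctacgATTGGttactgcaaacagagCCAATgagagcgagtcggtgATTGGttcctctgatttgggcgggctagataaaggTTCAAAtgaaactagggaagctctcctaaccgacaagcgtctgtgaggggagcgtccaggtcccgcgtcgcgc
Cenpf: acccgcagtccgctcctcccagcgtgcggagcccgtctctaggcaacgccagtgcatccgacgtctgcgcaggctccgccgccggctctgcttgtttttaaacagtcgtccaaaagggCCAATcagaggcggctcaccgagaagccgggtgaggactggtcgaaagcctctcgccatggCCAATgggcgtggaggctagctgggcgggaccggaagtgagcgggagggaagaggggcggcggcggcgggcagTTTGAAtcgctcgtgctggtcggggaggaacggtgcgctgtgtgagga
Aspm: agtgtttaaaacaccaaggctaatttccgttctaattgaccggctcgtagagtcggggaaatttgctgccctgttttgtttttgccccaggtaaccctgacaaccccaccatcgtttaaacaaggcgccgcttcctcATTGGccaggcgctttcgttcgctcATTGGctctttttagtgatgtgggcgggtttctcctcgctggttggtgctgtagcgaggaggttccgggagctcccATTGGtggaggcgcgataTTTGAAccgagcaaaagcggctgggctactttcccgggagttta

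Both strands were searched for the 2 motifs, and no match of one overlapped a match of the other in these 10 promoters. The Mki67 window held 2 TTTGAA and 3 CCAAT matches, the Top2a window 2 and 6, the Cenpf window 1 and 2, and the Aspm window 1 and 3. TTTGAA was present in 8 of the 10 promoters of the rule, against 17.9% of all 32851 promoters of this length. CCAAT was present in 7 of 10, against 37.4%, and both motifs in 5 of 10, against 6.95%. Bub1 and Cenpe had no TTTGAA in this window, and Anln, Kif15 and Knl1 no CCAAT. Among 50 other genes of G2 phase and mitosis, 44 promoters of 41 genes were found, of which 30 held TTTGAA (68.2%) and 32 CCAAT (72.7%). Among 40 genes of DNA replication, 36 promoters of 31 genes were found, of which 4 held TTTGAA (11.1%) and 22 CCAAT (61.1%). A match describes letters in a window and does not show that a factor binds there.

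In the files' GRCm38 annotation Mki67 (ENSMUSG00000031004) lies on chromosome 7 from 135689784 to 135716361 and Top2a (ENSMUSG00000020914) on chromosome 11 from 98992943 to 99024189, both on the minus strand. Cenpf (ENSMUSG00000026605) lies on chromosome 1 from 189640606 to 189688086 on the minus strand and Aspm (ENSMUSG00000033952) on the same chromosome from 139454772 to 139494091 on the plus strand. Mki67, Top2a and Cenpf overlap a predicted gene on the other strand (Gm45240, Gm26394 and Gm37239), and how the authors' counting used strand is not given in the sources used here.

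The rule's threshold cut through a continuum. The 91 nuclei with 3 of the 10 genes, just outside, had a median of 6202 UMIs and 7 of the 50 other G2 and mitosis genes detected, and the 67 nuclei with 4, just inside, a median of 6443 UMIs and 10 such genes. Over all cycling nuclei the median was 7 of the 10 genes, and it was 6 or 7 in each library.

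**Figure D1:**
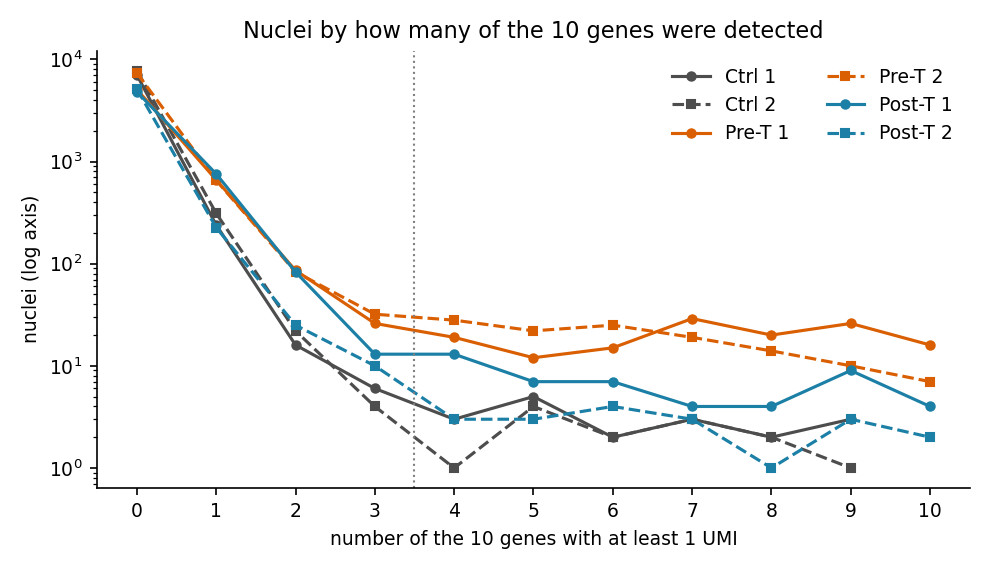
Number of kept nuclei (vertical axis, log scale) by how many of the 10 genes had at least 1 UMI (horizontal axis), with a line for each of the 6 mice. The dotted line marks the threshold between 3 genes (91 nuclei) and 4 genes (67 nuclei), and the 360 nuclei to its right are the cycling ones.

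Cycling nuclei made up a larger share of the nuclei in all 4 Western diet mice than in both chow mice, and the share was highest in Pre-T. The share was 0.246% in Ctrl 1 (18 of 7329, exact binomial 95% interval 0.146% to 0.388%) and 0.160% in Ctrl 2 (13 of 8114, 0.0853% to 0.274%). It was 2.29% in Pre-T 1 (137 of 5993, 1.92% to 2.70%) and 1.51% in Pre-T 2 (125 of 8274, 1.26% to 1.80%). It was 0.839% in Post-T 1 (48 of 5722, 0.619% to 1.11%) and 0.352% in Post-T 2 (19 of 5402, 0.212% to 0.549%). No group overlapped another, both Post-T mice lay between Ctrl and Pre-T, and the intervals of Post-T 2 and Ctrl 1 overlapped. These intervals cover counting error only.

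The mean share was 0.203% ± 0.0604 for Ctrl, 1.90% ± 0.548 for Pre-T and 0.595% ± 0.344 for Post-T (SD, n = 2 mice each). The Pre-T mean was 9.36 times and the Post-T mean 2.93 times the Ctrl mean. The 4 Western diet mice averaged 1.247% ± 0.840, which was 1.04 percentage points above Ctrl (exact permutation test, two-sided, p = 0.133, where 0.0667 is the smallest p that 4 against 2 mice allow). The differences of 1.70 points for Pre-T minus Ctrl, 0.392 points for Post-T minus Ctrl and -1.30 points for Post-T minus Pre-T each had p = 0.333 in the same exact permutation test, the smallest that 2 against 2 mice allow. Adjusted over these 4 comparisons, of which the first 3 share the Ctrl mice, every p in this exact permutation test was 0.333, and 2 mice a group cannot reach 0.05.

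**Figure D2:**
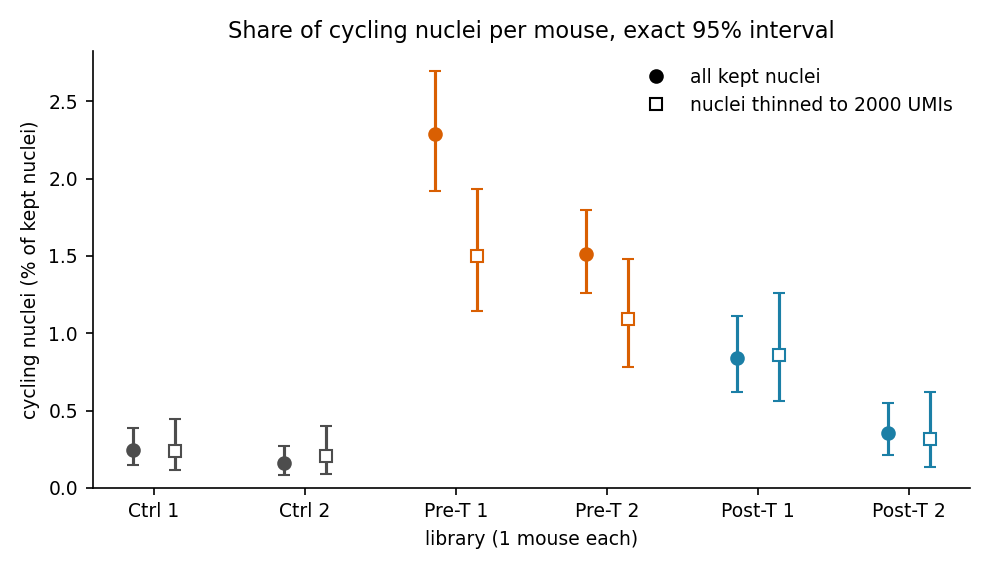
Share of kept barcodes that were cycling (percent, vertical axis) in each of the 6 mice, with exact binomial 95% intervals, for all kept nuclei (filled circles) and for nuclei thinned to 2000 UMIs (open squares). Over all kept nuclei the 2 Ctrl mice sit at 0.160% and 0.246%, the 2 Pre-T mice at 1.51% and 2.29%, and the 2 Post-T mice at 0.352% and 0.839%.

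Depth moved with this result. The median cycling nucleus had 4201.5 and 3368 UMIs in the Ctrl mice, 12627 and 8984 in the Pre-T mice and 5589.5 and 4291 in the Post-T mice, whereas other nuclei had medians of 1699 to 3160. Of the cycling nuclei 124 had at least 5000 genes (34.4%, against 4.46% of all kept barcodes), and 116 of these were in the Pre-T mice (65 and 51). The study's own filter left out barcodes with 5000 genes or more. Under that limit the shares were 0.249%, 0.129%, 1.33%, 0.943%, 0.810% and 0.338%, with both chow mice first, then both Pre-T mice and last both Post-T mice. The Pre-T mean was then 6.02 times and the Post-T mean 3.04 times the Ctrl mean.

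To set depth aside, each nucleus with 2000 UMIs or more was thinned at random to 2000 UMIs, which left 2528 to 4150 nuclei per library. The shares were then 0.241%, 0.203%, 1.503%, 1.09%, 0.862% and 0.316% in the same order, and the unthinned shares of the same nuclei 0.386%, 0.304%, 3.36%, 3.16%, 1.23% and 0.593%. After thinning the Pre-T mean was 5.84 times and the Post-T mean 2.65 times the Ctrl mean, and no group overlapped another. The excess in Pre-T was widest among the deepest nuclei. With at least 16000 UMIs, 56 of 578 nuclei were cycling in Pre-T 1 (9.69%) and 49 of 386 in Pre-T 2 (12.7%), against 4 of 428 in Post-T 1, 2 of 235 in Post-T 2, 3 of 423 in Ctrl 2 and 0 of 151 in Ctrl 1, which allows a share of up to 1.99%.

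**Figure D3:**
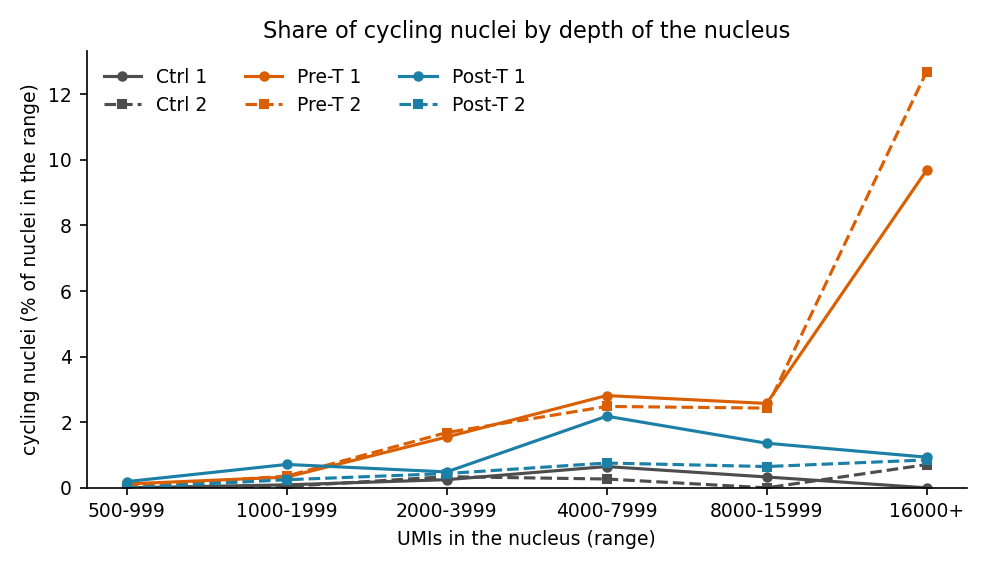
Share of nuclei that were cycling (percent, vertical axis) in ranges of UMIs per nucleus (horizontal axis), with a line for each of the 6 mice. Both Pre-T mice lie above the other 4 in the ranges from 2000 UMIs upward and reach 9.69% and 12.7% at 16000 UMIs or more, where Post-T 1 is at 0.935% and Post-T 2 at 0.851%.

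A definition that used none of the 10 genes gave the same order of groups. With at least 4 of the 50 other G2 and mitosis genes, the shares were 0.778%, 1.24%, 5.92%, 4.0005%, 2.57% and 1.52%. All 4 Western diet mice were again above both chow mice, and Post-T 2 at 1.52% was close to Ctrl 2 at 1.24%.

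Genes of G2 phase and mitosis outside the rule were higher in the cycling nuclei throughout the list. All 50 listed genes had a higher pooled CPM in cycling than in other nuclei, 47 of them in every library, with a median ratio of 28.1 and a range of 4.41 to 105. Over the 11476 genes outside all gene lists used here with a UMI in at least 10% of cycling nuclei, 11.4% were higher in every library. The 50 listed genes were not held to that 10% limit. The median cycling nucleus had 19.5 of the 50 detected. Diaph3, a formin of the contractile ring, was detected in 89.2% of cycling nuclei at a ratio of 39.9. Hmmr, a spindle protein, was found in 48.3% at a ratio of 94.3, and Ttk, a kinase of the spindle checkpoint, in 47.2% at a ratio of 79.2. The highest ratio was that of Iqgap3 at 105.

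The mitotic kinases and cyclins were detected in fewer nuclei. Aurkb, the kinase that corrects chromosome attachment, was found in 27.8% of cycling nuclei at a ratio of 50.9, Cdk1, the kinase that starts mitosis, in 33.3% at 27.0, and its partner Ccnb1 in 15.6% at 24.3. The transcription factor of late cell cycle genes Foxm1 was found in 30% at 22.2. Smc4, a subunit of condensin, was found in 82.5% of cycling but also in 13.0% of other nuclei, at a ratio of 4.93. Since the nuclei were chosen by genes of the same step, these ratios are descriptions.

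Genes of the G1 to S step and of DNA replication were higher in cycling nuclei by smaller ratios. Of 40 such genes 39 had a higher pooled CPM, 29 in every library, with a median ratio of 5.01. The largest ratios were those of Exo1, an exonuclease of DNA repair, at 20.6, Dtl, which marks licensing factors for degradation, at 16.6, and Ccne1, cyclin E1, at 15.6. Clspn, an adaptor of the replication checkpoint, was detected in 42.2% of cycling nuclei at a ratio of 14.1. Pola1, the catalytic subunit of the polymerase that starts DNA strands, was found in 77.8% at a ratio of 4.71, and Pcna, the sliding clamp, in 31.7% at 3.38. Mcm10 had a pooled ratio of 0.878 although it was higher in cycling nuclei within each of the 6 libraries, its level being several times higher in the chow mice, as given with the whole libraries.

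Cyclins, kinases and factors of G1 were less uniform, with 7 of 10 higher in cycling nuclei, 2 of them in every library, and a median ratio of 1.38. E2f2, a transcription factor of the S phase programme, had a ratio of 6.87 and Ccnd1, cyclin D1, one of 1.39, while Ccnd3, cyclin D3, was at 0.624 and higher in 1 library only. Among 15 inhibitors of the cycle 13 had a higher pooled CPM, 3 of them in every library, with a median ratio of 1.65. Rbl1, the pocket protein p107, was found in 59.2% of cycling nuclei at a ratio of 6.78, and the kinase inhibitors Cdkn2d and Cdkn2c had ratios of 6.12 and 5.13. Cdkn1a, the inhibitor p21, was detected in 36.4% of cycling and 8.28% of other nuclei, at a ratio of 1.65.

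**Figure D4:**
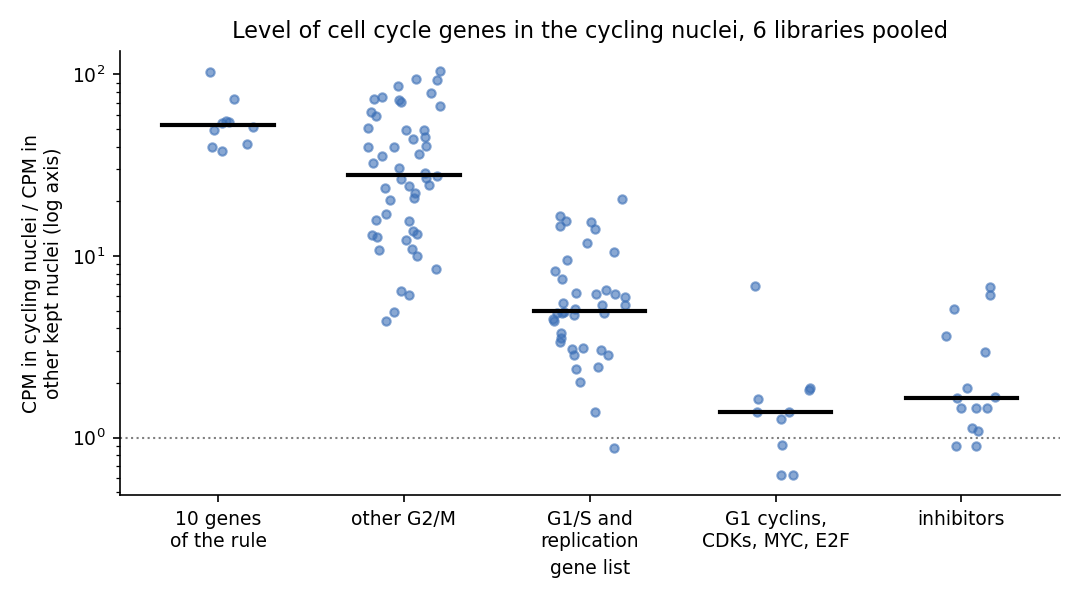
Ratio of CPM in cycling to CPM in other nuclei (log scale) for each gene of the rule and of the lists of other G2 and mitosis genes, replication genes, G1 drivers and inhibitors, pooled over 6 libraries, with 1 point per gene and a black line at each median. The medians are 52.4, 28.1, 5.01, 1.38 and 1.65 in that order, and the dotted line marks equal levels.

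Outside all lists, 96 of 11476 genes with a UMI in at least 10% of cycling nuclei had a ratio over 3 in every library. Ranked by the smallest ratio over the libraries, the first were Ankle1 at 41.9, Neil3 at 33.1, Depdc1a at 29.98, Ska1 at 29.6 and Cdc25c at 28.3. Neil3 is a DNA glycosylase that acts at replication forks and was detected in 64.2% of cycling nuclei, Ska1 belongs to a complex that couples kinetochores to microtubules, and Cdc25c is the phosphatase that activates Cdk1. Lockd, a long noncoding RNA transcribed downstream of Cdkn1b, had a smallest ratio of 19.1 and a UMI in 67.8%. It overlaps Gm44238 on the other strand, so reads of the pair could be split by the counting.

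Replication genes held more of the cell cycle UMIs in the cycling nuclei of all 4 Western diet mice than in those of both chow mice. Replication genes made up 27.9% and 25.0% of the UMIs of the replication and other G2 and mitosis lists together in Ctrl 1 and Ctrl 2. They made up 32.4% and 39.5% in Pre-T 1 and Pre-T 2, and 36.0% and 39.8% in Post-T 1 and Post-T 2. All 4 Western diet mice were above both chow mice, and Pre-T and Post-T overlapped. The mean was 36.9% in the 4 and 26.4% in the 2, a difference of 10.5 points (exact permutation test, two-sided, p = 0.0667, the smallest this design allows), and it was 12.1 points among nuclei under 5000 genes. The 2 chow values rest on 31 nuclei. More replication than mitosis UMIs were found in 1, 0, 35, 40, 16 and 7 nuclei in the 6 libraries, 99 in all.

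Which cells were cycling was read from 9 lists of lineage markers: endothelial, fibroblast, cholangiocyte, mesothelial, myeloid, B cell, T or NK cell, plasmacytoid dendritic cell and erythroid. A nucleus carried a list when at least 3 of its markers had a UMI and their UMI rate was at least 4 times that of the nuclei of its library not carrying it, a rule set after the data had been seen. The class is therefore a range on a score and not a cell type. Hepatocyte genes were found in every class. Alb, the gene of albumin, had a UMI in all 127 cycling nuclei with none of the 9 lists, and hepatocyte marker UMIs ran at 41.5 to 145 per 10000 in the cycling nuclei of every class with at least 14 nuclei. Free RNA and hepatocyte origin cannot be told apart here, so no cycling nucleus was called a hepatocyte.

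The largest class, 127 nuclei (35.3%), carried none of the 9 lists, and the largest with a lineage was myeloid with 64 (17.8%). Endothelial markers alone were carried by 42 nuclei (11.7%), erythroid by 31 (8.61%), fibroblast by 18, T or NK cell by 14, B cell by 4, cholangiocyte by 2, mesothelial by 1 and plasmacytoid dendritic cell by 1. Several lists at once were carried by 56 (15.6%, against 7.46% of other nuclei of the same library and depth), most often endothelial with erythroid in 13, endothelial with fibroblast in 9 and endothelial with myeloid in 7. The part of doublets and of free RNA in these barcodes was not tested. The automatic doublet call did not work in these libraries, and 33 of the 360 cycling barcodes (9.17%) were among the 6% with the highest doublet scores.

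The pooled cycling share varied between the marker classes. Over all libraries 0.500% of the nuclei with none of the 9 lists were cycling, 0.793% of the endothelial, 0.664% of the fibroblast, 0.603% of the B cell, 1.32% of the T or NK cell and 2.23% of the myeloid nuclei. Of 108 nuclei with the erythroid list 31 were cycling (28.7%). These shares pool mice that contributed unequal numbers and are descriptions.

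The replication share given above moved with these classes. It was 29.5% of the cell cycle UMIs in endothelial, 25.1% in fibroblast and 24.1% in cholangiocyte cycling nuclei, which together were 12 of the 31 chow nuclei, against 39.5% in myeloid nuclei and 44.8% in erythroid nuclei, of which the chow mice had none. Within classes it was 16.8% in the 7 endothelial nuclei of the chow mice and 31.5% in the 35 of the Western diet mice, and 33.6% in 6 and 40% in 58 myeloid nuclei. It was 32.0% in 4 and 32.9% in 123 nuclei with none of the lists, and 25.1% under both diets in the fibroblast nuclei (3 and 15). The part of the makeup in the difference between diets was not tested.

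**Figure D5:**
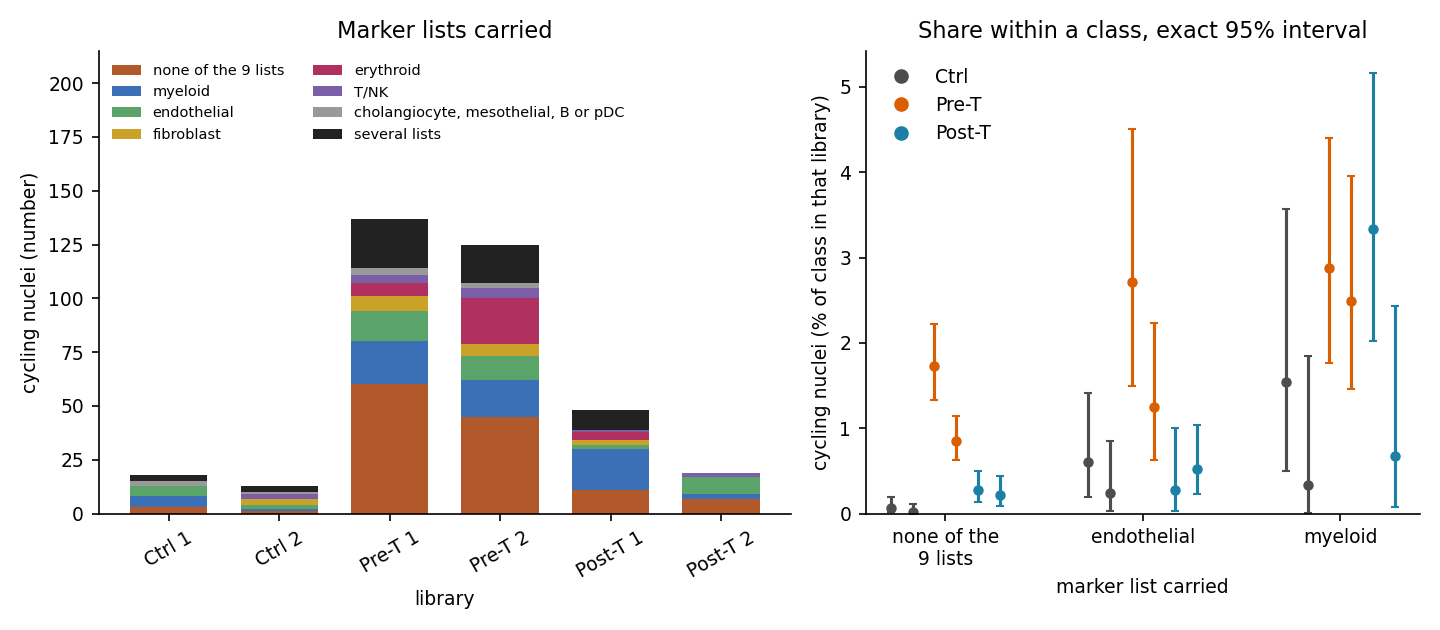
Left, number of cycling nuclei in each of the 6 libraries, stacked by the marker lists they carried. Right, share of the nuclei of a class that were cycling (percent) for nuclei with none of the 9 lists, endothelial and myeloid nuclei, with 1 point per mouse and exact binomial 95% intervals. Nuclei with none of the lists are the largest part of both Pre-T bars (60 and 45), and in the myeloid class Post-T 1 at 3.34% is the highest mouse.

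Of the 262 cycling nuclei of Pre-T, 105 carried none of the 9 lists. The cycling share in this class was 0.0660% in Ctrl 1 (3 nuclei), 0.0204% in Ctrl 2 (1), 1.73% in Pre-T 1 (60), 0.854% in Pre-T 2 (45), 0.281% in Post-T 1 (11) and 0.213% in Post-T 2 (7). The groups did not overlap, and all 4 Western diet mice were above both chow mice by a mean of 0.727 points (exact permutation test, two-sided, p = 0.133). With at least 4000 UMIs the shares were 0.175%, 0.0610%, 2.71%, 2.58%, 0.302% and 0.506%. Thinned to 2000 UMIs they were 0.0750%, 0% (0 of 2466 nuclei, which allows up to 0.122%), 1.14%, 0.706%, 0.137% and 0.0675%, so that Post-T 2 then lay below Ctrl 1 and only the 2 Pre-T mice stood clear of the rest.

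Within Pre-T the 105 cycling nuclei with none of the lists were set beside 3107 other nuclei of the class with at least 4000 UMIs. That limit was set for the other nuclei only. It was reached by 53 of the 60 cycling nuclei of Pre-T 1 and 32 of the 45 of Pre-T 2. The 2 sets were therefore not matched for depth. Counts of genes higher or lower in both mice are descriptions, since the share over all genes was not worked out. Hepatocyte genes were not higher in the cycling nuclei, with 11 of 12 lower in both mice and none higher in both. Of 15 inhibitors 8 were higher in both mice and none lower in both. Rbl1 reached 125 and 56.2 CPM against 7.11 and 9.27, and Rb1, the retinoblastoma protein, 170 and 133 against 76.1 and 83.8. Cdkn1a did not separate them, with 58.5 and 49.9 CPM against 56.3 and 55.6. Of 15 genes listed for liver tumors 4 were higher in both mice (Gpc3, Scd2, Cd44 and Lcn2) and 1, Sox4, was lower in both. Cd44, an adhesion receptor, was at 121 and 135 CPM against 54.2 and 60.9 and in 64.8% against 29.2% of nuclei. Over all libraries 8 of the 15 genes listed for tumors had a higher pooled CPM in cycling nuclei, with a median ratio of 1.02. Golm1 alone (2.62) was higher in every library.

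Clustering of all nuclei on genes outside the cell cycle lists put 112 of the 360 cycling nuclei into 1 cluster of 1166, of which 9.61% were cycling. It held 49 cycling nuclei of Pre-T 1, 58 of Pre-T 2, 4 of Post-T 1 and 1 of Ctrl 2. Its median depth was 11624.5 UMIs, and it was left unnamed because no single listed cell type met the rule for names. Its first leading genes (Gm11099, Gm16271, 4930512H18Rik, Gm49267 and Ksr2) are not markers of a listed cell type. Gm11099 and Ksr2, with Mmp27 further down its ranking, were also leading genes of a myeloid-like cluster led by Mmp12. What these shared genes mean for the lineage of its nuclei was not tested. Of the 127 cycling nuclei with none of the lists, 95 fell into unnamed clusters, 28 into myeloid-like, 3 into hepatocyte-like and 1 into the erythroid-like cluster. The hepatocyte-like clusters held 4 cycling nuclei of 9482, and 7978 of these 9482 nuclei came from the chow mice.

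Myeloid cycling nuclei carried genes of macrophages, and also of monocytes and dendritic cells, all from the list that had defined the class. Adgre1, the macrophage antigen F4/80, had a UMI in 68.8% of the 64 against 58.5% of the other 2802 myeloid nuclei. Cd5l was found in 60.9% and 54.0%, and Clec4f, a lectin of Kupffer cells, in 35.9% and 33.8%. Ccr2, a receptor of recruited monocytes, was found in 23.4% and 13.6%, and Itgam, the integrin CD11b, in 42.2% and 22.4%. The cycling nuclei were deeper (median 5589.5 against 2051.5 UMIs), and in CPM Adgre1 was at 647 against 747, Clec4f at 266 against 485 and Ccr2 at 126 against 144. All 12 macrophage genes listed were found in a larger share of the cycling than of the other myeloid nuclei, and 9 of the 12 were lower in CPM. Of 8 monocyte genes 7 were found in a larger share, and 4 were higher and 4 lower in CPM, Itgam at 232 against 185. Of 8 dendritic cell genes 7 were found in a larger share, and 4 were higher and 4 lower in CPM. Among these Wdfy4 was at 629 against 422 and Clec9a at 36.1 against 49.9. Of 9 neutrophil genes Csf3r, the receptor of a granulocyte growth factor, was found in 32.8% against 27.3% and at 85.1 against 176 CPM, Camp in 7.81% against 1.39%, and the other 7 in at most 4.69% of the cycling nuclei.

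The myeloid cycling share was 1.54% in Ctrl 1 (5 of 324), 0.333% in Ctrl 2 (1 of 300), 2.87% in Pre-T 1 (20 of 696), 2.49% in Pre-T 2 (17 of 683), 3.34% in Post-T 1 (19 of 569) and 0.680% in Post-T 2 (2 of 294). Post-T 1 was the highest of the 6 mice and Post-T 2 lay between the chow mice. Western diet exceeded Ctrl by 1.41 points (exact permutation test, two-sided, p = 0.267). In the myeloid-like clusters 101 of 4862 nuclei were cycling (2.08%). These nuclei came from clusters that differed only in part between the mice. A cluster led by Hs3st2, Negr1 and Itgad held 27 cycling nuclei of Post-T 1, 11 of Pre-T 1 and 10 of Pre-T 2. It held 1 nucleus of each chow mouse, neither of them cycling. One led by Mmp12 with Timd4 and Vsig4 held 14 cycling nuclei of Pre-T 2, 11 of Pre-T 1, 3 of Post-T 2, 2 of Post-T 1 and 1 of Ctrl 1. Another, led by Gpr141, held 10 cycling nuclei of Pre-T 1, 6 of Pre-T 2, 3 of Ctrl 1, 1 of Ctrl 2 and 1 of Post-T 1. The last, led by Cd163 and Clec4f, held 1 of Ctrl 1.

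Endothelial cycling nuclei carried sinusoidal genes, which belong to the list that had defined the class. Ptprb, a phosphatase of vessel walls, had a UMI in 100% of the 42 against 90.4% of other endothelial nuclei. Stab2, a scavenger receptor of liver sinusoids, was found in 90.5% against 67.6%, and Flt1, a receptor of vascular growth factors, in 76.2% against 64.3%. Vwf, typical of larger vessels, was found in 19.05% against 11.1% of other endothelial nuclei. The cycling nuclei were deeper (median 7123.5 against 1870 UMIs), and in CPM all 12 endothelial genes were lower in them, Ptprb at 652 against 1864, Stab2 at 832 against 1725, Flt1 at 147 against 663 and Vwf at 29.9 against 97.7. Of the 42 nuclei 22 fell into unnamed and 18 into endothelial-like clusters. The cycling share of the class was 0.611% in Ctrl 1, 0.237% in Ctrl 2, 2.71% in Pre-T 1, 1.253% in Pre-T 2, 0.280% in Post-T 1 and 0.526% in Post-T 2. Both Pre-T mice were above the other 4, and the Post-T mice lay within the range of the chow mice (difference -0.0211 points, exact permutation test, two-sided, p = 1). The place of Pre-T 2 depended on the marker threshold, since at 5 times the rate it was at 0.535% (4 of 747) and Ctrl 1 at 0.737%. In the endothelial-like clusters the shares were 0.552%, 0.198%, 0.767%, 0.547%, 0.268% and 0.501% in the 6 mice, so that Pre-T 2 did not exceed Ctrl 1 there. Over the 32 comparisons made within marker classes the smallest adjusted p of these exact permutation tests was 0.395.

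The 18 fibroblast nuclei carried genes of stellate cells, the pericytes of the liver that store vitamin A. These too belong to the list that had defined the class. Reln had a UMI in 100% against 88.1% of other fibroblast nuclei, and Dcn in 94.4% against 80.8%. Hgf, the hepatocyte growth factor, was found in 94.4% against 80.2%, and Lrat, which stores retinol as ester, in 50% against 37.8%. Of the collagen genes Col3a1 was found in 55.6% against 43.9%, Col1a2 in 27.8% against 23.7% and Col1a1 in 16.7% against 7.73%. In CPM all 12 fibroblast genes were lower than in the other fibroblast nuclei, Reln at 543 against 2401 and Lrat at 40.6 against 193, and 12 of the 18 nuclei fell into unnamed clusters. The 14 T or NK cell nuclei carried T cell genes, with Themis in 92.9%, Lck in 85.7% and Cd8a in 28.6%. All 12 T cell genes listed were found in at least 1 of the 14. Of 8 NK cell genes Ncr1 and Klre1 were each found in 1 nucleus (7.14%, against 10.9% and 12.6% of the other T or NK cell nuclei), and Klrb1c, Gzma, Eomes, Klra8, Prf1 and Klri2 in none, which at 14 nuclei allows a share with a UMI of up to 21.4% for each.

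Erythroid cycling nuclei were found in Pre-T 1 (6 of 13 erythroid nuclei), Pre-T 2 (21 of 34) and Post-T 1 (4 of 49). Post-T 2 had 0 of 11 and Ctrl 2 had 0 of 1, and Ctrl 1 held no erythroid nucleus. The cycling share of this class in the chow mice could therefore not be judged. Of the 31 nuclei 18 fell into unnamed clusters and 12 into the erythroid-like cluster. Of 13 erythroid genes 8 were found in a larger share of these than of the 77 other erythroid nuclei, among them the membrane genes Ank1 in 87.1% against 45.5%, Rhag in 64.5% against 31.2%, Klf1, the transcription factor of the erythroid programme, in 25.8% against 6.49% and Epor, the erythropoietin receptor, in 22.6% against 3.896%. Slc4a1, the anion exchanger of the membrane, and Alas2, the first enzyme of heme synthesis in these cells, were found in smaller shares, 61.3% against 76.6% and 71.0% against 77.9%. In CPM 12 of the 13 genes were lower in the cycling nuclei, Ank1 at 240 against 294, Slc4a1 at 116 against 843 and Alas2 at 77.3 against 799, and Klf1 was at 20.9 against 19.6. The beta globin Hbb-bs had a UMI in 100% of the cycling and 96.1% of the other nuclei, at 684 against 68956 CPM. The 31 fell into 21 nuclei with under 5000 genes, a median of 2135 UMIs and 71.3 globin UMIs per 10000, and 10 with more genes, a median of 58915 UMIs and 6.67 globin UMIs per 10000. Of the 10 deep ones 9 were from Pre-T 2 and 1 from Pre-T 1. The CPM of the cycling nuclei pool all UMIs, so those given above rest mostly on these 10 deep nuclei. Whether the deep nuclei are of the erythroid lineage was not tested.

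At the level of whole libraries, UMIs of all kept barcodes were summed per mouse and tested with edgeR. In such sums fewer cycling nuclei and less RNA per nucleus cannot be told apart. The cycling nuclei held 33.2% to 78.5% of the UMIs of the 10 genes, with 47.5%, 33.2%, 78.5%, 67.1%, 48.5% and 50.1% in the 6 libraries, although they held 0.326%, 0.357%, 7.19%, 8.36%, 1.22% and 0.599% of all UMIs. Outside them the 10 genes together were at 12.0 CPM in each chow mouse and 30.3, 34.1, 38.6 and 18.1 CPM in the Western diet mice, so the order of the diets was the same in nuclei that did not meet the rule.

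Top2a stood at 4.40 and 2.38 CPM in Ctrl, 29.7 and 20.6 in Pre-T and 15.7 and 7.47 in Post-T. The groups did not overlap, and the log2 fold change was 2.90 for Pre-T against Ctrl (edgeR adjusted p = 0.0867) and 1.78 for Post-T against Ctrl (adjusted p = 0.0972). Mki67 stood at 2.93 and 1.70 CPM in Ctrl, 13.1 and 12.3 in Pre-T and 22.0 and 7.47 in Post-T. Its Post-T mice enclosed the Pre-T mice, with log2 fold changes of 2.46 (edgeR adjusted p = 0.115) and 2.68 (adjusted p = 0.0640) against Ctrl. Cenpf stood at 1.47 and 0.939 CPM in Ctrl, 6.02 and 5.96 in Pre-T and 5.08 and 5.54 in Post-T. It was the only gene of the 10 that passed, and only in Post-T against Ctrl, where it rose by 2.15 ± 0.35 on the log2 scale (SE, edgeR adjusted p = 0.0424, and 0.204 and 0.198 without either chow mouse).

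For Pre-T against Ctrl edgeR called 0 of the 10 genes and 0% of all 22320 genes tested, where 4456 genes had an unadjusted p under 0.05 and DESeq2 called 2260 genes (10.1%), 9 of the 10 among them. All 10 had a positive log2 fold change, from 1.28 to 2.90 with a median of 2.12, beside a median of -0.00 over all genes. For Post-T against Ctrl 1.05% of the genes tested were called higher and 2.28% lower. All 10 were positive there too, from 0.27 to 2.68 with a median of 1.51, with 1 called by edgeR and 7 by DESeq2, which called 16.3% of all genes. These 2 comparisons share the Ctrl mice. For Post-T against Pre-T 0.0134% of genes were called higher and 0.00448% lower, which is 4 genes, where 5685 had an unadjusted p under 0.05 and DESeq2 called 3303 (14.8%). None of the 10 was among the calls of either tool, and their median was -0.63, from -1.29 to 0.22.

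The 50 other G2 and mitosis genes had medians of 1.59 for Pre-T against Ctrl, 0.71 for Post-T against Ctrl and -0.89 for Post-T against Pre-T, with 47, 42 and 4 positive. edgeR called none of them in the 3 comparisons. DESeq2 called 26, 9 and 4 of the 50, beside the 10.1%, 16.3% and 14.8% of all genes given above, so only the first is well over the share of all genes. The 40 replication genes had medians of 0.68, 0.49 and -0.09, the last close to that of all genes (-0.08), and edgeR called 3, all in Post-T against Ctrl. Clspn rose from 1.85 and 1.70 CPM in Ctrl to 9.19 and 5.72 in Post-T, with 3.83 and 3.47 in Pre-T between them (log2 fold change 2.07, edgeR adjusted p = 0.0457). Lig1, the ligase that joins DNA fragments, rose from 3.44 and 2.79 to 9.41 and 9.98 CPM (1.64, edgeR adjusted p = 0.0472). Mcm10 went the other way, from 94.3 and 118 CPM in Ctrl to 9.05 and 17.7 in Post-T (-2.99 ± 0.37, edgeR adjusted p = 0.0295), and stood at 10.9 and 12.5 in Pre-T (-3.17, adjusted p = 0.0749). Without Ctrl 1 or Ctrl 2 edgeR called 0 genes of any kind in Post-T against Ctrl (3216 and 3657 at an unadjusted p under 0.05), so these calls rest on both chow mice.

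Among the 10 drivers of G1 the 1 call was Ccnd3, which stood at 115 and 139 CPM in Ctrl, 96.3 and 98.6 in Pre-T and 428 and 430 in Post-T. It rose by 1.76 ± 0.21 on the log2 scale in Post-T against Ctrl (edgeR adjusted p = 0.0292), and both Post-T mice were above the other 4. Within cycling nuclei Ccnd3 stood at 30.5, 95.8, 93.4, 118, 475 and 70.8 CPM in the 6 mice, so that 1 Post-T mouse was high and the other was not. The call was lost without either chow mouse, as were all others of that comparison. None of the 15 inhibitors was called by edgeR in any comparison of the whole libraries, while DESeq2 called 4, 5 and 1 of the 15 beside those shares of all genes, and their medians were 0.50, 0.58 and -0.39.

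UMIs summed over the cycling nuclei alone were compared between the groups in the same way. The sums were 90744, 124433, 2856300, 2827080, 354619 and 128268 UMIs, so the Ctrl and Post-T 2 values rest on 13 to 19 nuclei each, and 15358 genes were tested. The cell type makeup of the cycling nuclei differed between mice, and its part in these values was not tested. For Pre-T against Ctrl 0.026% of genes were called higher and 0.0977% lower, for Post-T against Ctrl 0.0586% and 0.26%, and for Post-T against Pre-T 0.176% and 0.319%.

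Genes of G2 phase and mitosis had lower CPM in the cycling nuclei of Pre-T than in those of the other groups. The 50 other G2 and mitosis genes had log2 fold changes with a median of -1.06 for Pre-T against Ctrl, where the median of all genes was 0.33, and of 1.12 for Post-T against Pre-T, where it was -0.19. DESeq2 size factors in place of TMM moved the median of all genes by -0.16 and 0.10 in these 2 comparisons, and relative to it the list stood at -1.39 and 1.31 with TMM and -1.39 and 1.30 with size factors. The replication genes had medians of -0.39 (-0.42 with genes at 0 in a group set to their bound) and 1.38, with 13 and 40 of the 40 positive. Of the drivers of G1 9 were tested, and 7 and 9 of them were positive, with medians of 0.42 and 0.97. The rule's genes, whose detection chose the nuclei, were all 10 lower in Pre-T than in Ctrl and higher in Post-T than in Pre-T, and the Pre-T nuclei were the deepest. The part of depth in these values was not tested.

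Of all cell cycle genes listed 2 were called in these sums, both higher in Post-T than in Pre-T. Cit, the citron kinase of cytokinesis, stood at 203 and 200 CPM in Ctrl, 44.0 and 47.7 in Pre-T and 267 and 142 in Post-T (log2 fold change 2.19 ± 0.42, edgeR adjusted p = 0.0414). E2f7, a repressor of the S phase programme, stood at 132 and 71.9 CPM in Ctrl, 23.8 and 16.3 in Pre-T and 106 and 102 in Post-T (2.37 ± 0.46, edgeR adjusted p = 0.0431). Both Pre-T mice were below the other 4 for each gene. Each call was lost with DESeq2 size factors in edgeR (adjusted p = 0.177 and 0.193), with no filter on low counts, without either Pre-T mouse and without Post-T 1, while the DESeq2 test gave adjusted p = 6.76e-05 and 0.00141. Cit overlaps the predicted genes Gm42473 and Gm42471, and E2f7 overlaps 1700020G17Rik on the other strand.

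Of the genes named by the rule for Post-T in the cycling sums, Hamp, Hal and Cyp2f2 are genes of hepatocytes, and all 3 were at 0 in both Post-T mice. Hamp, the gene of the iron hormone hepcidin, stood at 885 and 1501 CPM in Ctrl, 327 and 538 in Pre-T and 0 in both Post-T mice, at least 192-fold lower than in Ctrl (edgeR adjusted p = 0.000306) and at least 69.6-fold lower than in Pre-T (adjusted p = 0.00248), with a floor of 3 UMIs over the 2 Post-T mice. Hal, the enzyme that begins histidine breakdown, stood at 712 and 727, 83.8 and 121, and 0 and 0 CPM, at least 116-fold lower in Post-T than in Ctrl and at least 16.5-fold lower than in Pre-T. Cyp2f2, a cytochrome of periportal hepatocytes, stood at 81.3 and 240, 48.3 and 79.5, and 0 and 0 CPM, at least 25.8-fold and 10.3-fold lower. In the whole libraries Hamp stood at 890, 1838, 209, 412, 1.55 and 0.700 CPM and Hal at 1010, 850, 55.3, 98.5, 2.56 and 0.934, the same order of groups as in the cycling nuclei. Against Pre-T the calls for Hamp and Hal held without each mouse in turn, but were lost with DESeq2 size factors in edgeR (adjusted p = 0.0972 each) and with no filter on low counts (0.292 each), at nearly the same fold changes. That for Cyp2f2 was lost in both of these and without Post-T 1 (edgeR adjusted p = 0.221). Without Ctrl 1 or Ctrl 2 edgeR called 0 genes against Ctrl (1274 and 951 at an unadjusted p under 0.05).

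Other genes of this kind were lower in Pre-T than in Ctrl. Hsd3b5, a steroid dehydrogenase of the male mouse liver, stood at 30.5 and 55.9 CPM in the chow mice and at 0 in all 4 Western diet mice, at least 81.8-fold lower in Pre-T (edgeR adjusted p = 0.0335). Mup11, a major urinary protein, stood at 112 and 71.9 CPM in Ctrl, 1.07 and 1.11 in Pre-T and 0 in Post-T (log2 fold change -6.23 for Pre-T, edgeR adjusted p = 0.0152). The major urinary protein genes are near-identical copies, so counts may be split among them. The other genes named by the same rule for Pre-T were Gm12718 (-7.15), Gm3839 (-6.88) and the receptor phosphatase Ptprt (-5.60). In Post-T against Ctrl they were Aspg, an asparaginase, and Grm8, a glutamate receptor, at least 30.1-fold and 25.2-fold lower. Each call against Ctrl was lost without Ctrl 1 or Ctrl 2, where edgeR called 0 genes in Pre-T (950 and 1013 at an unadjusted p under 0.05), those for Hsd3b5 and Ptprt also without Pre-T 1 (adjusted p = 0.0549 each), and those for Grm8 and Cyp2f2 without Post-T 1 (0.0758 and 0.0801). With DESeq2 size factors in edgeR only the calls for Hamp and Hal in Post-T against Ctrl remained among the genes named here (adjusted p = 0.0273 and 0.0269), and with no filter on low counts none did.

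Mmp12, the elastase of macrophages, differed between the mice on the Western diet. It stood at 138 and 70.6 CPM in the cycling nuclei of Pre-T and 0 in both Post-T mice, at least 16.8-fold lower (edgeR adjusted p = 0.0368), and at 40.7 and 0 CPM in the chow mice. Caln1 stood at 94.1 and 72.8 CPM in Pre-T and 0 in Post-T, at least 13.4-fold lower (adjusted p = 0.0214). Both calls were lost without Post-T 1 (edgeR adjusted p = 0.178 and 0.0789), with DESeq2 size factors in edgeR (0.233 and 0.177) and with no filter on low counts. Of the 30 cycling nuclei of Post-T 1 in myeloid-like clusters, 27 lay in the cluster led by Hs3st2 and 2 in the one led by Mmp12. Those of Pre-T 1 and Pre-T 2 lay in both, with 11 and 10 in the first and 11 and 14 in the second. A further 10 and 6 of them lay in the cluster led by Gpr141, which held 1 of Post-T 1. The part of this cluster makeup in the difference between the groups was not tested.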

How the data were processed

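The livers were profiled as single nuclei with the 3′ kit of 10x Genomics. Per the submitters' processing notes the reads were aligned to mm10 with Cell Ranger 6.1.1, and the authors deposited a matrix of raw UMI counts, genes by called barcodes, for every library, with no normalization. Whether intronic reads were counted is not given in the sources used here. The deposited counts were whole numbers over 32285 genes. The 2 mice of a group are separate animals.

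The members and gene lists were chosen with earlier results of these data known. Shares carry exact Clopper-Pearson 95% intervals, which cover counting error only, and were compared over mice by exact permutation tests (scipy 1.17.1, Python 3.11.15). Limits for a count of 0 used 3 counts. Sums per mouse were tested, for genes that reached 10 counts in total, with the quasi-likelihood test of edgeR 4.0.16 in R 4.3.3 on all 6 mice with TMM scaling, at an adjusted p (Benjamini-Hochberg) under 0.05, and with DESeq2 1.42.0 as an alternative. Levels from these sums are TMM-scaled CPM, and other levels are CPM without further scaling. On simulated data for Pre-T against Ctrl, edgeR recovered 74.5% of 200 genes changed by 2 on the log2 scale in the whole libraries (21918 genes, 3.25% of calls false) and 32% in the cycling sums (14477 genes, 0% false) with the trended spread, and 26% and 39.5% with the spread of each gene (14.8% and 16.0% false).

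Named genes were the 10 of the rule, examples of the lists, up to 15 genes outside them with the largest smallest ratio over the libraries, and up to 5 genes per comparison with the largest log2 fold change among those called, with a mean of at least 10 CPM and no overlap between groups. Nuclei were clustered with scikit-learn 1.9.0, igraph 0.11.9 and leidenalg 0.10.2 (2000 variable genes without the cell cycle lists, 30 components, 15 neighbours, resolution 1). A cluster was named only from at least 3 markers of a cell type with levels raised over the other nuclei. Further conditions applied to its leading genes, to competing cell types and to depth. The erythroid list left out the globins, and the myeloid list joined macrophage, monocyte, neutrophil and dendritic cell markers. Scrublet, run in scanpy 1.11.5, called 18.0% of Ctrl 1 and under 0.5% of each other library, so no barcode was removed as a doublet. Replicate numbers did not pair the mice. The alternatives were DESeq2, its size factors, no filter on low counts, a replicate block, each mouse left out, and other thresholds, gene sets, depths and mitochondrial limits for the share. Those added after seeing the data were the doublet score, the marker list and crossed block alternatives and the depth limits within classes.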

Additional observations from a re-analysis of the deposited data

Results flagged for a closer look

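The mitochondrial limit left out barcodes that also met the 4-gene rule, and these were found in the Western diet libraries alone. There were 12 in Pre-T 1 (7.19% of the 167 barcodes left out), 4 in Pre-T 2 (2.05% of 195), 6 in Post-T 1 (1.54% of 389) and 1 in Post-T 2 (0.424% of 236), 23 in all. The chow libraries had 0 of 43 and 0 of 18. These barcodes drew attention because they lie outside the nuclei compared in the report and exceed the level of the chow libraries, whose small numbers of left-out barcodes limit the comparison.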

How the results depend on the processing

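The 4 share differences and the replication share kept their direction in every alternative run. Western diet minus Ctrl ranged from 0.610 to 2.49 points, Pre-T minus Ctrl from 0.872 to 3.95, Post-T minus Ctrl from 0.149 to 1.03, Post-T minus Pre-T from -2.92 to -0.525 and the replication share from 9.08 to 12.5. Leaving out each mouse in turn gave 0.698 to 1.34, 1.31 to 2.08, 0.149 to 0.636, -1.69 to -0.915 and 9.08 to 12.0 points in that order. Without Post-T 1 the Post-T minus Ctrl difference was 0.149 points and Western diet minus Ctrl kept its direction.

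Counts of genes called depended on the settings, and the cause was not tested. They are given first for Pre-T and then for Post-T, each against the chow mice, and last for Post-T against Pre-T. In the whole libraries edgeR called 0, 743 and 4 genes, DESeq2 2260, 3637 and 3303, and edgeR without the filter on low counts 547, 1642 and 826. With a replicate block it called 0, 171 and 0 (4888 genes at an unadjusted p under 0.05 in the last). Leaving out each mouse in turn gave 0 to 0, 0 to 1965 and 0 to 1975, with 0 in Post-T against Ctrl without either chow mouse and the highest counts without Post-T 1. A group left with 1 mouse is assumed to vary like the other groups. Where these were 0, 2279 to 3657 genes had an unadjusted p under 0.05.

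In the cycling sums edgeR called 19, 49 and 76 genes and DESeq2 73, 151 and 106. With DESeq2 size factors edgeR called 0, 2 and 0 (1138, 1314 and 1393 at an unadjusted p under 0.05), without the filter 0, 0 and 0 (1208, 1263 and 1430), and with the replicate block 197, 327 and 233. Leaving out each mouse gave 0 to 60, 0 to 475 and 47 to 441, with 0 without either chow mouse (950 to 1274 genes at an unadjusted p under 0.05) and the highest counts without Pre-T 2 in the first and without Post-T 2 in the others. The calls named from these sums therefore rest on pairs of mice, and none of the 31 gene results called was kept in every alternative.

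The replicate numbers were not paired: deviations of same-numbered mice correlated at -0.101 to 0.0935 in the whole libraries and -0.180 to 0.0392 in the cycling sums. With the Pre-T numbers crossed in the block, chosen after seeing the data, edgeR called 1 gene in the whole libraries for Pre-T against Ctrl and 284 in the cycling sums for Post-T against Pre-T. The block ended 9 of the 31 calls.

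In the whole libraries 3 log2 fold changes of rule genes turned sign. Anln in Post-T against Ctrl ran from -0.43 without Post-T 1 to 0.71 without Post-T 2, Aspm in Post-T against Pre-T from -0.64 without Post-T 1 to 0.077 without Pre-T 1, and Mki67 in Post-T against Pre-T from -0.84 without Post-T 1 to 0.80 without Post-T 2. With the marker threshold at 3 or 5 times the rate, 90 or 159 cycling nuclei carried none of the lists, 79 or 50 were myeloid, 44 or 41 endothelial, 22 or 35 erythroid and 93 or 33 carried several lists. The chow values rest on 31 cycling nuclei and those of Post-T 2 on 19. Thinning to 2000 UMIs lowered the shares of the same nuclei from 3.36% and 3.16% to 1.503% and 1.09% in Pre-T and from 0.386% and 0.304% to 0.241% and 0.203% in Ctrl.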
